A study of Arabidopsis thaliana with 41 samples.

Results

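The genes described here encode the nuclear part of the organelle transcription machinery of Arabidopsis thaliana: the 6 sigma factors SIG1 to SIG6 and the 3 phage-type RNA polymerases RPOTm, RPOTp and RPOTmp. They were taken by their gene identifiers, as 9 of the 32865 genes in the deposited RNA-seq tables. The tables hold 16 libraries from rosette leaves of plants grown under long days. Atepl1-2 carries frameshift deletions, made with Cas9, near the start of the coding parts of both AtEPL1A and AtEPL1B. Ateaf1-1 carries a Cas9 deletion that joins AtEAF1A and AtEAF1B into a chimeric gene with a frameshift. The glk plants are the glk1-1 glk2-1 mutant, with transposon insertions in both GOLDEN2-LIKE genes, and WT is Col-0, the background that all the mutants share. The EPL1 and EAF1 proteins belong to NuA4, a complex that acetylates histone H4 and the variant H2A.Z, and the GLK proteins are transcription factors that promote chloroplast development. The libraries fall into a pair of label sets: the first holds Atepl1-2 replicates 1, 3 and 4 and WT replicates 5, 7 and 8, and the second holds 3 libraries each of Atepl1-2, Ateaf1-1 and glk and a single WT library, replicate 4. Each library was made from leaves pooled from several plants.

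Chloroplast genes are read by polymerases of different origin. The bacterial-type plastid-encoded polymerase (PEP) has a core encoded in the chloroplast (rpoA, rpoB, rpoC1 and rpoC2), which cannot choose a promoter until a nuclear-encoded sigma factor joins it, and which carries a shell of PEP-associated proteins (PAPs). The nuclear-encoded polymerases (NEP) are single-subunit enzymes related to those of phages: RPOTp works in plastids, RPOTm in mitochondria, and RPOTmp is sent to both. In green leaves PEP reads most photosynthesis genes, while NEP reads housekeeping genes and the rpoB operon itself.

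All 9 genes are nuclear, and their positions are given on TAIR10.1. SIG1 (AT1G64860) lies at chr1:24097736-24100970 on the plus strand, SIG2 (AT1G08540) at chr1:2703295-2706860 on the plus strand, SIG3 (AT3G53920) at chr3:19960789-19963980 on the minus strand, SIG4 (AT5G13730) at chr5:4429095-4430901 on the minus strand, SIG5 (AT5G24120) at chr5:8157151-8160343 on the minus strand and SIG6 (AT2G36990) at chr2:15537225-15540139 on the minus strand. RPOTm (AT1G68990) lies at chr1:25934997-25940996, RPOTp (AT2G24120) at chr2:10248851-10254641 and RPOTmp (AT5G15700) at chr5:5114761-5121841, all on the minus strand. The transcripts have 4 (SIG4) to 10 (SIG1) exons among the sigma factors and 17 (RPOTp) to 19 (RPOTm and RPOTmp) among the polymerases. No stretch of 31 bases is shared between members. SIG4 overlaps the oppositely transcribed AT5G13720 by 201 bases, which puts 12.0% of its 31-base stretches in both genes, and RPOTm overlaps AT1G68980 on the other strand by 34 bases. RPOTmp shares 0.582% of its 31-base stretches with AT2G45500. The libraries were stranded, but whether the counting used the strand is not given in the sources used here, so SIG4 values are less certain than the others.

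The 200 bases before the annotated transcript start are shown for 4 members: SIG2 and SIG6, which were low in both NuA4 mutants, and SIG5 and RPOTmp, which were higher in Atepl1-2 within the first label set. SIG3 was low in both NuA4 mutants too. Its window is not shown, and it held TATAAA but not TGGGC. Capitals mark matches, on either strand, to TGGGC (the core of the site II element), TATAAA (the box bound by TBP) or CCAATC (an element bound by GLK proteins). The sequences come from the RefSeq genome TAIR10.1, at chr1:2703095-2703294 (plus strand), chr2:15540140-15540339 (minus), chr5:8160344-8160543 (minus) and chr5:5121842-5122041 (minus), and each runs 5′ to 3′ to the last base before the start.
SIG2: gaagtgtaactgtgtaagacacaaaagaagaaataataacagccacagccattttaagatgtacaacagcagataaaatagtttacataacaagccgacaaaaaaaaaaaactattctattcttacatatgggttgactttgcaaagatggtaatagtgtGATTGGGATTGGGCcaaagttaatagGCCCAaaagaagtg
SIG6: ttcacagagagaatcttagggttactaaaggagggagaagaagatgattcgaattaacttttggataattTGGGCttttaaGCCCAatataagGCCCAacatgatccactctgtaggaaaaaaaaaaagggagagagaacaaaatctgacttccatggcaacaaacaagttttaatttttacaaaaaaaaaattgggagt
SIG5: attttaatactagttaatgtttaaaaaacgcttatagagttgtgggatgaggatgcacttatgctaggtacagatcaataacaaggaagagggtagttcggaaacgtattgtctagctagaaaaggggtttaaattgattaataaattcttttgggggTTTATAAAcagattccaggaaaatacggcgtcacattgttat
RPOTmp: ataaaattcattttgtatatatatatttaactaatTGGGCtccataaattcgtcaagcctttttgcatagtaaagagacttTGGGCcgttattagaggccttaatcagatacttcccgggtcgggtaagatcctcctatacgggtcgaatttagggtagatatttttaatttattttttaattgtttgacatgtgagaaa

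TGGGC was present in this window in 5 members (SIG1, SIG2, SIG6, RPOTm and RPOTmp), and in 20.5% of 27443 nuclear protein-coding genes. TATAAA was present in 5 members (SIG1, SIG3, SIG4, SIG5 and RPOTp), and in 41.0% of those genes. CCAATC was found in SIG2 alone, as a pair of copies at -40 and -34, the second of which overlaps TGGGC, and in 8.43% of those genes. Of 3 further motifs searched on both strands, the I-box GATAAG was found in RPOTm alone (9.97% of genes), and the G-box CACGTG (5.64%) and the telo-box AAACCCTA (3.72%) in no member. These letters are a description of the windows: the motifs were searched with the expression values known, and no binding was measured.

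The libraries held 22330141 to 39666320 estimated counts each, and every member was counted in every library (27 to 2772 counts) and passed the filter on low counts in every fit. Chloroplast genes took 40.2% to 55.9% of the counts in the NuA4 mutants, 61.4% to 64.5% in glk and 60.0% to 65.6% in WT. The labels give separate samples, so within the first label set the p-values measure the spread between these leaf pools. In the fit of 13 libraries, WT libraries of both label sets are in the same group. The spread in that fit, and so its p-values, also includes any difference between the label sets. In the glk libraries GLK1 was lower than in WT (log2 fold change -2.85), while GLK2 was not called (-0.19). AtEAF1A and AtEAF1B were at -0.74 and -0.70 in Ateaf1-1 and not called. A frameshift need not lower a transcript, and AtEPL1A and AtEPL1B were higher, not lower, in Atepl1-2 within the first label set (1.01 and 2.00). In the second label set they were at -0.42 and 0.73 and not called, and both were lower there than in Atepl1-2 of the first label set (-1.35 and -1.07).

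Libraries of the label sets stood apart. The correlation of WT replicate 4 with WT replicates 5, 7 and 8 across expressed genes was 0.924 to 0.927, against 0.973 to 0.974 among those 3, and with the glk libraries it was 0.933 to 0.939. SAG12, a gene of senescing leaves, had 4.21 CPM in WT replicate 4 and 0 in the other WT libraries. The mesophyll markers RBCS1A and LHCB1.2 summed to 3385 to 4725 CPM in Atepl1-2 of the first label set, 3228 to 5056 CPM in the second, 3555 to 6630 CPM in Ateaf1-1, 3102 to 3405 CPM in glk, and 11251 to 12863 CPM in WT of the first label set, with 5590 CPM in WT replicate 4. The shoot meristem gene STM was at 0 in all 4 WT libraries but had 1.99 to 3.70 CPM in Atepl1-2 of the second label set, 1.73 to 1.96 CPM in Ateaf1-1 and 4.19 to 5.36 CPM in glk, and at most 0.139 CPM in Atepl1-2 of the first. The floral gene AP3 had 1.87 to 2.78 CPM in glk and was at 0 in WT. The floral gene AG did not show this contrast. It had 1.16 to 1.62 CPM in glk, 0.123 to 1.15 CPM in WT and 1.14 to 1.30 CPM in Atepl1-2 of the first label set. The root gene PLT1 was at 0 in every library. The part of these differences in the results was not tested, and in whole leaves fewer cells of a type cannot be told apart from less RNA per cell. The first label set holds only Atepl1-2 and WT, so for Atepl1-2 the comparison within that set is given too. Ateaf1-1 and glk have only WT replicate 4 in their own label set, and for them the results without it, against it alone or with a label set term are given where the call changes.

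SIG2, SIG6 and SIG3 were lower than WT in both NuA4 mutants and in both label sets of Atepl1-2, and were not called in glk. Values are CPM, a library's count of a gene relative to its total, after TMM scaling over the 16 libraries. A gene is called here at a fold change of at least 1.5 and an FDR under 0.01, the FDR being the Benjamini-Hochberg adjusted p of edgeR's quasi-likelihood test. By this rule 4 of the 6 sigma factors fell in Atepl1-2 of the second label set (SIG1, SIG2, SIG3 and SIG6), where 13.5% of the 20733 genes tested fell, and 4 of 6 fell in Ateaf1-1 (SIG2, SIG3, SIG4 and SIG6), where 12.5% fell. Within the first label set 4 of 6 fell in Atepl1-2 (SIG2, SIG3, SIG4 and SIG6), where 21.8% of 18840 genes fell. The median log2 fold change of the 6 sigma factors was -1.44 in Atepl1-2 of the second label set, -1.66 in Ateaf1-1 and -1.04 in Atepl1-2 within the first label set, against medians over all genes of 0.05, 0.07 and 0.05. In glk none of the 6 was called by edgeR or limma-voom (3 had an unadjusted p under 0.05, and DESeq2 called SIG1), where 11.6% of all genes were called in either direction. On a log2(TPM + 1) scale, where the median of all genes itself moved to 0.50, 0.56 and 0.38, the median of the 6 was -0.33, -0.41 and -0.21 in these comparisons, with 4 of 6 below 0 each time, and 0.34 in glk, against -0.12 on counts. SIG2 was at -1.21, -0.91 and -0.85 on that scale and SIG6 at -0.99, -0.53 and -0.71, and both lost their call in Ateaf1-1 (FDR 0.012 and 0.061). SIG3 lost its call in all 3 NuA4 comparisons (-0.30, -0.36 and -0.21). With nothing added, its mean TPM was 0.95 in Atepl1-2 of the second label set, 0.86 in Ateaf1-1 and 1.38 in WT. In CPM these means were 3.20, 2.84 and 9.32. Within the first label set they were 1.05 TPM in Atepl1-2 and 1.36 TPM in WT, and 4.68 and 9.71 CPM. The TPM scale thus held a smaller difference before 1 was added, and at such levels adding 1 shrinks it further. Each mesophyll marker was also below WT of the first label set in every mutant library, glk included. LHCB1.2 was below WT replicate 4 (2964 CPM) in every mutant library too, at 2197 CPM or less. RBCS1A was not: it had 2626 CPM in WT replicate 4, 2664 to 3052 CPM in glk, and up to 3199 CPM in Atepl1-2 and 4433 CPM in Ateaf1-1. The phloem marker SUC2 had 44.0 to 72.9 CPM in the NuA4 mutants, 69.7 to 76.5 CPM in glk and 102 to 171 CPM in WT. The phloem marker APL did not follow it, with 3.85 to 13.2 CPM in the NuA4 mutants and 5.13 to 6.23 CPM in glk. In WT of the first label set APL had 9.73 to 12.3 CPM, and in WT replicate 4 it had 4.09 CPM. The part of these markers in the results was not tested.

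**Figure D1:**
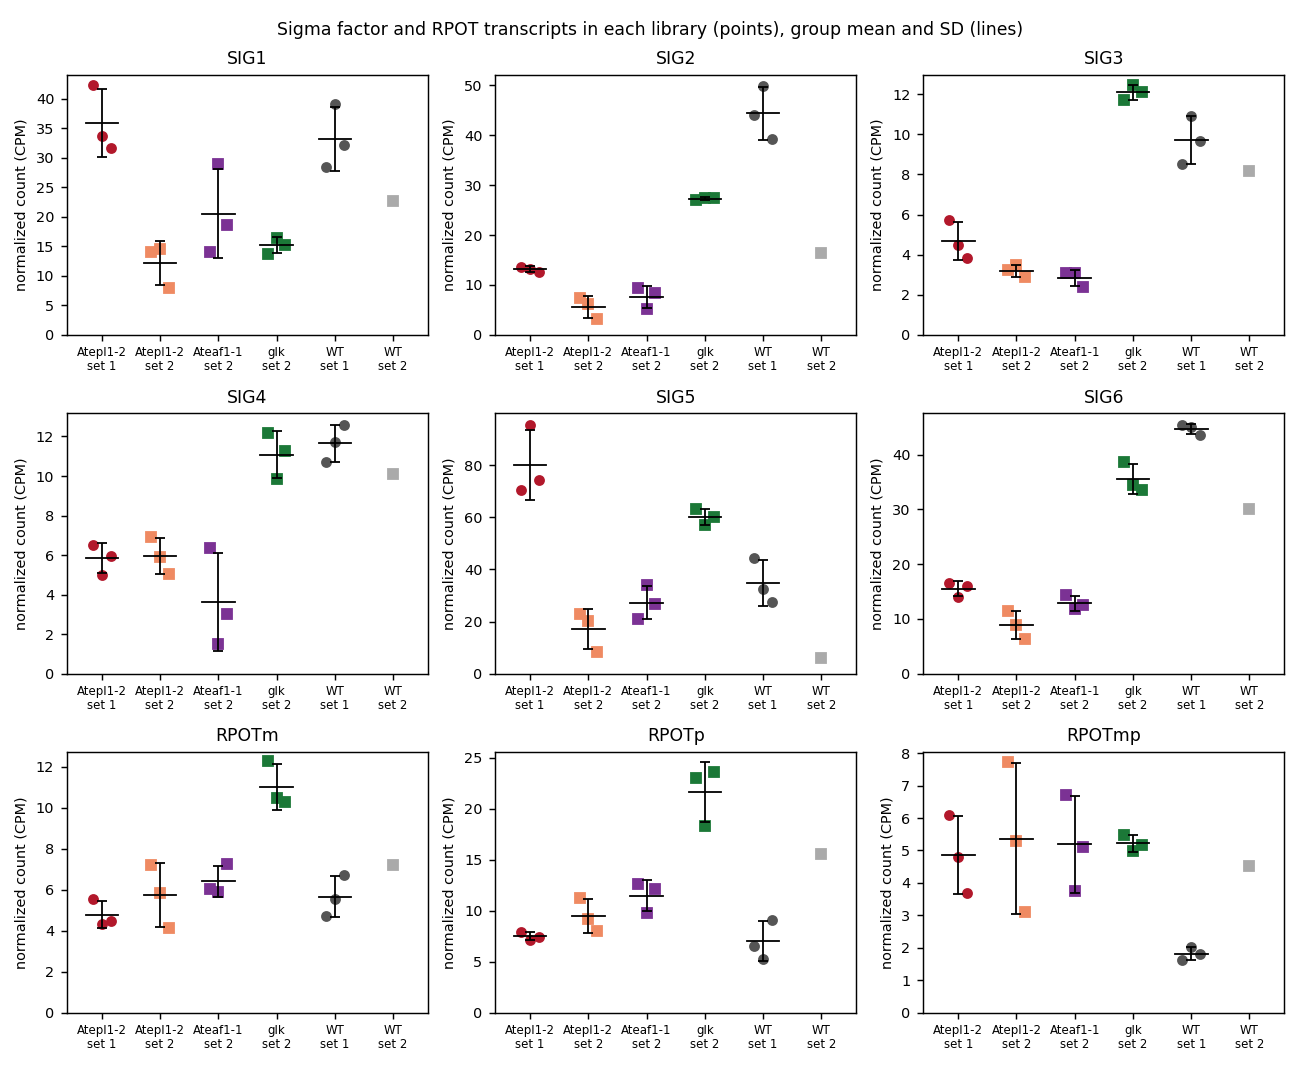
Normalized counts (CPM, linear axes from 0) of the 9 genes in each library, with circles for the first label set, squares for the second, and black lines for the group mean and SD. SIG2 lies between 3.19 and 13.7 CPM in all NuA4 mutant libraries, and between 16.3 and 49.9 CPM in WT.

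SIG2 is a sigma factor needed for several plastid tRNA genes and psaJ. Of the 9 genes it changed most in both NuA4 mutants against all 4 WT libraries, and in Atepl1-2 within the first label set. Against WT replicate 4 SIG6 changed more in Atepl1-2 (-1.75 in the fit of 16 libraries) and SIG5 in Ateaf1-1 (2.17 in the second label set alone). SIG2 had 13.7, 13.2 and 12.6 CPM in Atepl1-2 of the first label set, 7.36, 6.16 and 3.19 CPM in Atepl1-2 of the second, 9.30, 5.18 and 8.34 CPM in Ateaf1-1 and 27.0, 27.4 and 27.5 CPM in glk. In WT it had 44.1, 49.9 and 39.3 CPM in replicates 5, 7 and 8, and 16.3 CPM in replicate 4. All 9 NuA4 mutant libraries were below all 4 WT libraries, while the glk libraries lay between WT replicate 4 and the other WT libraries. The log2 fold change was -2.75 (SE 0.38, FDR 6.8e-05) in Atepl1-2 of the second label set and -2.30 (SE 0.37, FDR 2.8e-04) in Ateaf1-1. Within the first label set it was -1.78 (SE 0.13, FDR 3.3e-06). Against the lone WT library of the second label set it came to -1.55 in Atepl1-2 and -1.10 in Ateaf1-1 and was called in neither in a fit of the second label set alone (FDR 0.014 and 0.069). The same contrast of Atepl1-2 within a fit of all 16 libraries gave -1.54 (SE 0.33, FDR 0.0022) and was called, where 8.56% of all genes were called lower.

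SIG6 serves PEP broadly in young seedlings. It had 16.5, 14.0 and 16.1 CPM in Atepl1-2 of the first label set, 11.5, 8.97 and 6.28 CPM in Atepl1-2 of the second, 14.4, 11.7 and 12.5 CPM in Ateaf1-1 and 38.6, 34.5 and 33.5 CPM in glk. WT had 45.4, 45.0 and 43.6 CPM in replicates 5, 7 and 8 and 30.1 CPM in replicate 4. The NuA4 mutants and WT did not overlap, and the gap between the highest mutant and the lowest WT library was wider than the spread within any mutant group. SIG6 fell by 2.20 on the log2 scale (SE 0.22, FDR 5.0e-06) in Atepl1-2 of the second label set, by 1.68 (SE 0.22, FDR 5.0e-05) in Ateaf1-1, and by 1.55 (SE 0.12, FDR 4.3e-06) in Atepl1-2 within the first label set. In glk its log2 fold change was -0.22 (SE 0.21, FDR 0.50). Against WT replicate 4 alone the call in Ateaf1-1 was lost (-1.23, FDR 0.012).

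SIG3, which in Arabidopsis reads psbN, was low in every NuA4 mutant library. It had 5.71, 4.51 and 3.82 CPM in Atepl1-2 of the first label set, 3.25, 3.47 and 2.89 CPM in Atepl1-2 of the second, 3.08, 3.06 and 2.37 CPM in Ateaf1-1, 11.7, 12.5 and 12.1 CPM in glk, and 8.54, 10.9, 9.66 and 8.15 CPM in WT replicates 5, 7, 8 and 4. The highest NuA4 mutant library was below the lowest WT library, and every glk library was above every WT library. Its log2 fold changes were -1.54 (SE 0.17, FDR 1.0e-05) in Atepl1-2 of the second label set, -1.72 (SE 0.17, FDR 5.3e-06) in Ateaf1-1 and -1.07 (SE 0.18, FDR 5.6e-04) in Atepl1-2 within the first label set. SIG3 also passed against WT replicate 4 alone, in Atepl1-2 (-1.36) and in Ateaf1-1 (-1.52).

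SIG4 serves ndhF. It had 6.51, 5.02 and 5.97 CPM in Atepl1-2 of the first label set, 6.89, 5.92 and 5.06 CPM in Atepl1-2 of the second, 6.35, 1.52 and 3.01 CPM in Ateaf1-1, 12.2, 9.82 and 11.3 CPM in glk, and 10.7, 11.7, 12.6 and 10.1 CPM in WT replicates 5, 7, 8 and 4. All NuA4 mutant libraries lay below WT and the glk libraries overlapped it. SIG4 fell in Ateaf1-1 (log2 fold change -1.64, SE 0.34, FDR 0.0019) and in Atepl1-2 within the first label set (-1.02, SE 0.14, FDR 1.8e-04), and missed the threshold in Atepl1-2 of the second label set (-0.92, SE 0.33, FDR 0.037). The call in Ateaf1-1 was lost without Ateaf1-1 replicate 3 (-1.52, FDR 0.012), against WT replicate 4 alone (-1.48, FDR 0.063), with only the groups compared in the fit (-1.66, FDR 0.016) and on the log2(TPM + 1) scale (-0.46). On that scale the call within the first label set was lost too (-0.21), as it was in the fit of all 16 libraries (FDR 0.023), and the value in Atepl1-2 of the second was 0.06. With label set as a term, SIG4 was called in Atepl1-2 (-0.94, FDR 0.0080).

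SIG1, the sigma factor that CSK phosphorylates, was called lower in Atepl1-2 of the second label set and not within the first. It had 42.4, 33.7 and 31.6 CPM in Atepl1-2 of the first label set, 14.1, 14.6 and 7.93 CPM in Atepl1-2 of the second, 14.1, 28.9 and 18.6 CPM in Ateaf1-1, 13.8, 16.5 and 15.3 CPM in glk, and 28.4, 39.1, 32.2 and 22.6 CPM in WT replicates 5, 7, 8 and 4. Atepl1-2 overlapped WT in the first label set and lay below it in the second, and glk lay below every WT library. SIG1 fell in Atepl1-2 of the second label set (log2 fold change -1.33, SE 0.28, FDR 0.0017), while within the first label set the value was 0.09 (SE 0.16, FDR 0.64). The test of a different Atepl1-2 effect in the label sets, given below, did not pass. With label set as a term, a fit that gives 1 common Atepl1-2 effect over both label sets, the value was -0.26 (FDR 0.37), and against WT replicate 4 within the 16 libraries it was -0.89 (SE 0.35, FDR 0.060). In glk SIG1 was at -1.02 (SE 0.28, FDR 0.017), which missed the threshold with all 4 WT libraries and passed it without WT replicate 4 (-1.14, FDR 0.0061).

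SIG5, the sigma factor of the light-responsive psbD promoter, is known to be induced by blue light and stress. It had 70.7, 95.4 and 74.4 CPM in Atepl1-2 of the first label set, 22.8, 20.3 and 8.28 CPM in Atepl1-2 of the second, 21.1, 33.9 and 26.9 CPM in Ateaf1-1 and 63.1, 57.2 and 60.1 CPM in glk. WT had 44.5, 32.4 and 27.4 CPM in replicates 5, 7 and 8 but 6.06 CPM in replicate 4. Within either label set every mutant library was above every WT library, and across the sets the order was mixed. SIG5 rose in Atepl1-2 within the first label set, the only sigma factor to do so (log2 fold change 1.18, SE 0.20, FDR 6.4e-04). Against all 4 WT libraries it was called in none of the mutants of the second label set, with -0.69 (SE 0.48) in Atepl1-2, -0.02 (SE 0.48) in Ateaf1-1 and 1.12 (SE 0.47) in glk.

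The direction of SIG5 turned with the choice of WT libraries. When a label set term was added and the 16 libraries were fitted together, SIG5 was called higher in Ateaf1-1 (2.02, FDR 2.7e-04), in glk (3.10, FDR 4.2e-05) and in Atepl1-2 (1.28, FDR 5.8e-04), where the value is 1 effect over both label sets and so includes the comparison within the first. The contrast of Atepl1-2 with WT replicate 4 in those 16 libraries was 1.5 (SE 0.47, FDR 0.022) and was not called. Against WT replicate 4 alone the values were 1.49 (FDR 0.052) in Atepl1-2, 2.17 (FDR 0.015) in Ateaf1-1 and 3.31 (FDR 0.0060) in glk. Without that library they were -1.03 in Atepl1-2, -0.36 in Ateaf1-1 and 0.78 in glk, and none was called.

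**Figure D2:**
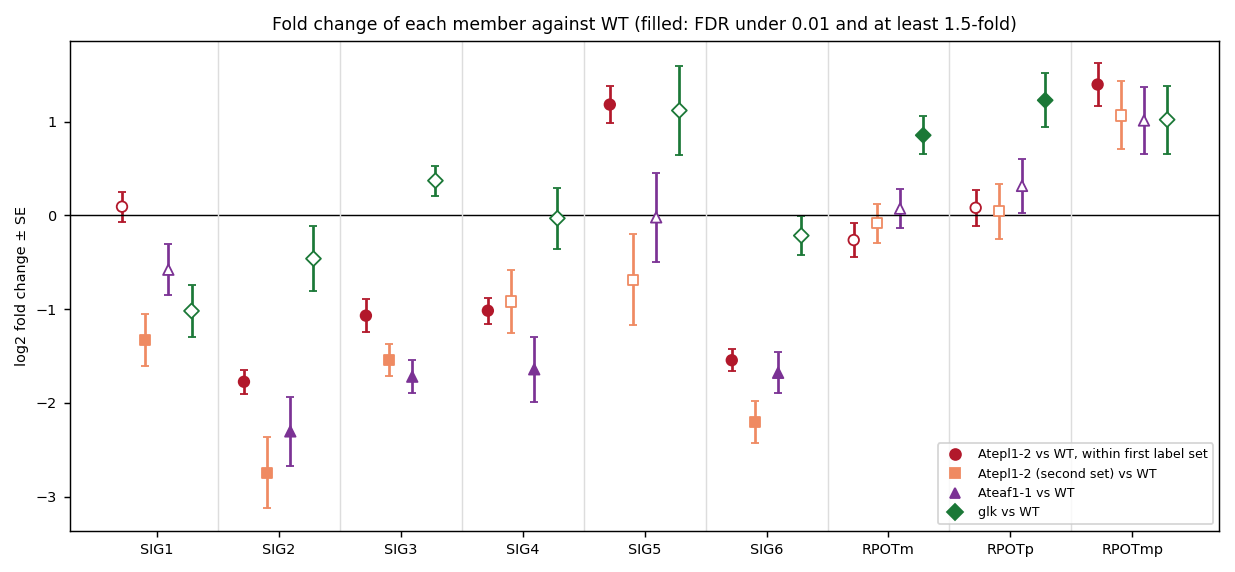
Log2 fold change against WT of each gene (points, with SE as bars) for Atepl1-2 within the first label set, Atepl1-2 of the second label set, Ateaf1-1 and glk, with filled points where the gene was called. SIG2, SIG3 and SIG6 are filled and below 0 in all 3 NuA4 comparisons, and RPOTm and RPOTp are filled and above 0 in glk.

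**Figure D3:**
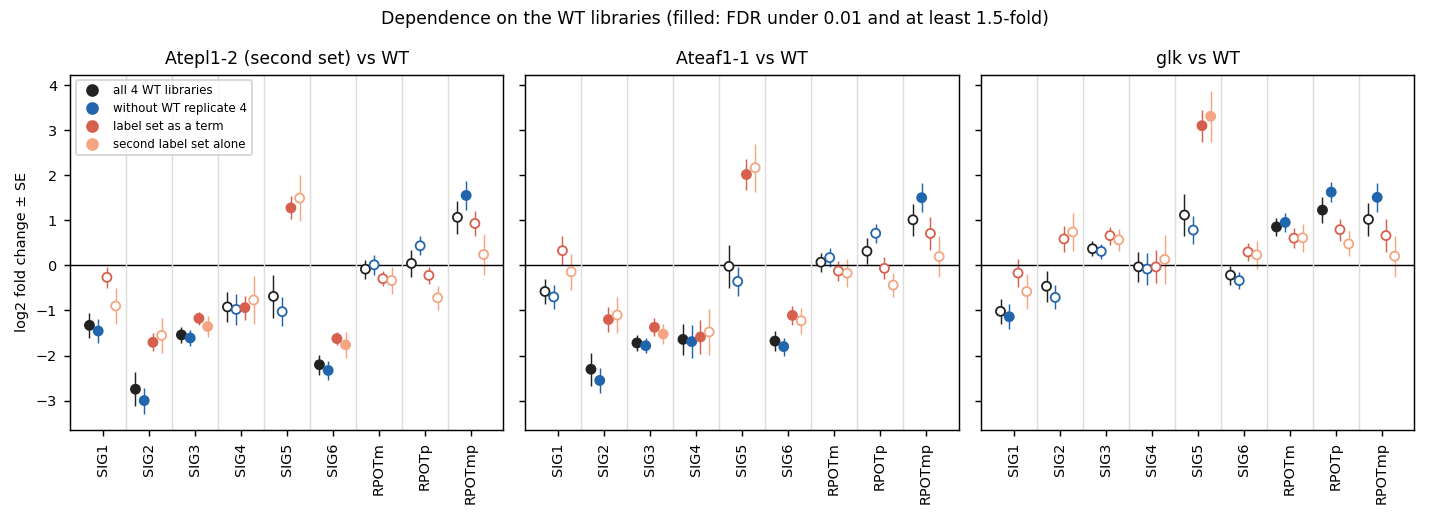
Log2 fold change (with SE) of each gene in the mutants of the second label set under 4 choices of WT: all 4 libraries, without WT replicate 4, label set as a term in a 16-library fit (for Atepl1-2, 1 effect over both label sets), and the second label set alone. SIG5 in Atepl1-2 lies at -0.69 with all 4 WT libraries and at 1.28 with label set as a term, while SIG3 and SIG6 stay below 0 in both NuA4 mutants under each choice.

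None of the phage-type polymerases was called lower in any mutant. Of the 3 genes, none was called in Atepl1-2 of the second label set or in Ateaf1-1 by edgeR, limma-voom or DESeq2 (1 had an unadjusted p under 0.05 in each, RPOTmp), where 30.3% and 26.1% of all genes were called in either direction. RPOTm and RPOTp rose in glk, where 4.18% of all genes rose, and RPOTmp rose in Atepl1-2 within the first label set, where 23.3% did. The medians of the 3 were 1.02 in glk, 0.04 in Atepl1-2 of the second label set, 0.31 in Ateaf1-1 and 0.08 in Atepl1-2 within the first label set.

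RPOTp, the plastid NEP, had 7.88, 7.11 and 7.44 CPM in Atepl1-2 of the first label set, 11.3, 9.16 and 8.05 CPM in Atepl1-2 of the second, 12.6, 9.74 and 12.1 CPM in Ateaf1-1 and 23.0, 18.3 and 23.6 CPM in glk. WT had 6.57, 5.27 and 9.12 CPM in replicates 5, 7 and 8 and 15.5 CPM in replicate 4. Every glk library was above every WT library and above every NuA4 mutant library. The log2 fold change in glk was 1.23 (SE 0.29, FDR 0.0079). Leaving out any single library except WT replicate 4 ended the call (FDR 0.016 to 0.037), and with label set as a term it was 0.79 (FDR 0.040). The call was lost too in the fit of the second label set alone, and the lowest value over all alternatives was 0.48.

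RPOTm, the mitochondrial polymerase, had 5.52, 4.32 and 4.45 CPM in Atepl1-2 of the first label set, 7.22, 5.84 and 4.13 CPM in Atepl1-2 of the second, 6.04, 5.91 and 7.27 CPM in Ateaf1-1, 12.3, 10.5 and 10.3 CPM in glk, and 4.72, 5.54, 6.71 and 7.20 CPM in WT replicates 5, 7, 8 and 4. Again the glk libraries stood above all others. The log2 fold change in glk was 0.85 (SE 0.21, FDR 0.0089). This call too was lost without any 1 library other than WT replicate 4 (FDR 0.017 to 0.048) and with label set as a term (0.60, FDR 0.086). In the fit of the second label set alone RPOTm was not called in glk either. The glk libraries are also those with the most STM and AP3 transcript, while their AG values overlapped those of Atepl1-2 of the first label set. The part of these tissues in RPOTm and RPOTp was not tested.

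RPOTmp, which in mitochondria is needed for nad2, nad6 and cox1 and in plastids acts early in greening, had the lowest mean TPM of the 9 in every group. It had 6.09, 4.78 and 3.70 CPM in Atepl1-2 of the first label set, 7.72, 5.28 and 3.09 CPM in Atepl1-2 of the second, 6.72, 3.75 and 5.10 CPM in Ateaf1-1 and 5.49, 4.99 and 5.17 CPM in glk. WT had 1.61, 2.02 and 1.81 CPM in replicates 5, 7 and 8, from 27 to 38 counts each, and 4.52 CPM in replicate 4. The mutants were all above WT of the first label set, and they overlapped WT replicate 4. RPOTmp rose in Atepl1-2 within the first label set (log2 fold change 1.40, SE 0.23, FDR 5.5e-04). On the log2(TPM + 1) scale it came to 0.46, under the fold threshold. Its means were 0.57 TPM in Atepl1-2 and 0.13 TPM in WT of that set, and at such levels adding 1 shrinks a fold change strongly. Against all 4 WT libraries it was at 1.07 (FDR 0.027) in Atepl1-2, 1.01 (FDR 0.037) in Ateaf1-1 and 1.02 (FDR 0.058) in glk. Without WT replicate 4, which leaves only WT of the first label set, RPOTmp was called in all 3 (1.55, 1.5 and 1.51). Against WT replicate 4 in the fit of 16 libraries, RPOTmp in Atepl1-2 was at 0.25. Over all alternatives its lowest values were 0.24 in Atepl1-2, 0.20 in Ateaf1-1 and 0.20 in glk.

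Set against each other, the mutants of the second label set gave a comparison that used no WT library. Here 5 of the 9 genes were higher in glk than in Atepl1-2 (SIG2, SIG3, SIG6, RPOTm and RPOTp), where 11.3% of all genes were, and none was lower, where 15.6% were. The log2 fold changes of glk over Atepl1-2 were 2.29 (SE 0.38) for SIG2, 1.91 (SE 0.18) for SIG3, 1.99 (SE 0.23) for SIG6, 0.94 (SE 0.22) for RPOTm and 1.18 (SE 0.31) for RPOTp. SIG2, SIG3, SIG4 and SIG6 were higher in glk than in Ateaf1-1 by 1.84 (SE 0.38), 2.09 (SE 0.18), 1.61 (SE 0.36) and 1.46 (SE 0.23), where 9.58% of all genes were higher and 12.1% lower, and no member was lower. Over Atepl1-2 the calls of SIG2, SIG3 and SIG6 held whichever library was left out. The call of RPOTp was lost without any 1 of the 6 libraries compared (FDR 0.011 to 0.036), and that of RPOTm without any 1 of them except Atepl1-2 replicate 1 (FDR 0.010 to 0.021). Over Ateaf1-1 the call of SIG2 was lost without Ateaf1-1 replicate 2 (1.63, FDR 0.012), and that of SIG4 without Ateaf1-1 replicate 3 (1.49, FDR 0.018), glk replicate 1 (1.54, FDR 0.013) or glk replicate 3 (1.60, FDR 0.011). SIG1 did not pass in either comparison (0.31 over Atepl1-2 and -0.44 over Ateaf1-1).

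No member passed between the Atepl1-2 and Ateaf1-1 plants of the second label set. None of the 9 was called by edgeR, limma-voom or DESeq2, 2 had an unadjusted p under 0.05 (SIG1 and SIG6), and 0.13% of all genes were called. The differences of Atepl1-2 from Ateaf1-1 reached from -0.75 (SE 0.29) for SIG1 to 0.72 (SE 0.35) for SIG4.

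The effect of Atepl1-2 was also compared between the label sets, as the effect in the first minus that in the second. No member passed (edgeR, lowest FDR 0.15 for RPOTp; 3 of 9 had an unadjusted p under 0.05, and limma-voom called none), where 1.5% of 22244 genes were called. The largest differences were 1.16 (SE 0.51) for RPOTmp, 1.00 (SE 0.43) for SIG1 and 0.81 (SE 0.33) for RPOTp, and the second label set enters this test with 1 WT library. A direct comparison of the Atepl1-2 libraries, chosen after the data were seen, gave 4 members lower in the second label set than in the first: SIG5 by 2.22, SIG1 by 1.56, SIG2 by 1.24 and SIG6 by 0.80 on the log2 scale. In that comparison 11% of all genes were lower and 10.7% higher, and no member was higher.

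Levels of different genes were compared in TPM, the deposited unit that corrects for transcript length. In Atepl1-2 of the first label set SIG5 led at 20 ± 4.16 TPM (SD, n = 3), followed by SIG1 at 9.97 ± 1.78 TPM and SIG6 at 3.73 ± 0.27 TPM, with no overlap between these. In Ateaf1-1 SIG5 led at 9.0 ± 1.47 TPM and SIG1 followed at 7.79 ± 2.90 TPM, and their ranges overlapped. In Atepl1-2 of the second label set the order began with SIG5 at 5.97 ± 3.77 TPM and SIG1 at 4.54 ± 2.25 TPM, and the ranges of all neighbours overlapped. In glk SIG5 led at 13.8 ± 1.94 TPM, then SIG6 at 8.19 ± 1.26 TPM and SIG2 at 5.97 ± 0.41 TPM, with no overlap. In WT of the first label set the order was SIG6, SIG2, SIG1 and SIG5, at 6.73 ± 0.77, 6.07 ± 0.56, 5.93 ± 0.16 and 5.51 ± 1.94 TPM (SD, n = 3), and the ranges of neighbours among these 4 overlapped. SIG4 followed there at 2.26 ± 0.22 TPM and SIG3 at 1.36 ± 0.03 TPM. The polymerases were lower, with RPOTp at 0.56 ± 0.18 TPM, RPOTm at 0.46 ± 0.08 TPM and RPOTmp at 0.13 ± 0.004 TPM. In WT replicate 4 SIG5 was the lowest sigma factor, at 1.17 TPM. The TPM values share their total with the chloroplast transcripts, whose share differed between groups, so levels were compared within a group and not between groups.

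The make-up of the sigma factor pool, as each gene's share of the summed SIG1 to SIG6 TPM of its library, does not depend on that total. SIG5 made up 44.3% to 56.7% of the pool in Atepl1-2 of the first label set, 23.3% to 33.5% in Atepl1-2 of the second, 30.1% to 37.6% in Ateaf1-1 and 35.3% to 37.3% in glk. In WT its share was 16.5% to 24.7% in the first label set and 6.16% in replicate 4. Only the lowest Atepl1-2 library of the second label set fell within the WT range. SIG2 made up 6.99% to 7.71%, 8.44% to 9.88% and 5.05% to 12.1% in Atepl1-2 of the first set, Atepl1-2 of the second set and Ateaf1-1, against 15.1% to 16.5% in glk and 15.6% to 23.4% in WT. SIG6 made up 8.00% to 10.6%, 14.4% to 17.6% and 12.6% to 20.2% in the same NuA4 groups, 20.7% to 22.8% in glk and 23.0% to 30.8% in WT. The glk pool differed in SIG1, at 8.99% to 11.3%, against 18.7% to 26.2% in WT.

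**Figure D4:**
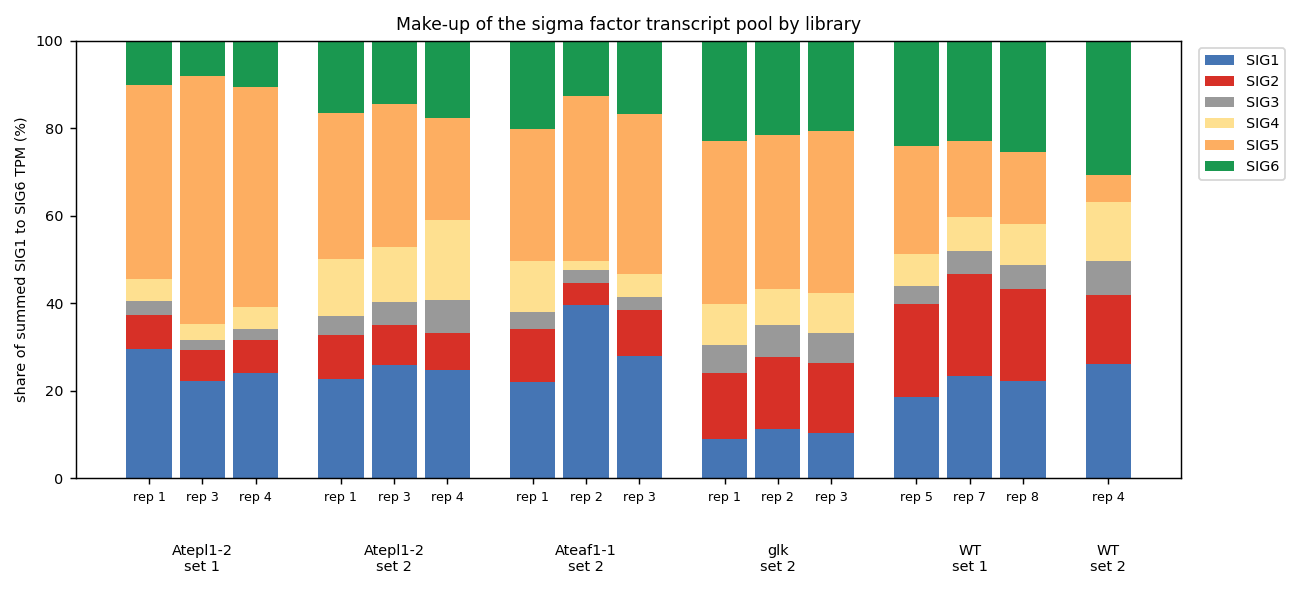
Share (%) of each sigma factor in the summed SIG1 to SIG6 TPM of each library, in stacked bars. SIG5 takes 44.3% to 56.7% in Atepl1-2 of the first label set against 16.5% to 24.7% in WT of that set, and SIG1 takes at most 11.3% in glk.

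Among the polymerases RPOTp had the highest mean share of the summed RPOT TPM in every group, and WT replicate 7 was the library in which RPOTm (44.5%) exceeded it (41.0%). RPOTmp made up 22.0% to 28.7% in Atepl1-2 of the first label set, 18.0% to 26.7% in Atepl1-2 of the second, 17.5% to 23.8% in Ateaf1-1 and 11.7% to 13.2% in glk, against 9.45% to 14.8% in WT. Every NuA4 mutant library was above every WT library in this share, WT replicate 4 included, and the glk libraries were within the WT range.

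Likeness of profile was measured as the root mean square difference between centred log2 CPM over the 16 libraries, for which the median over 22009 nuclear genes was 0.73 to 1.30 depending on the member. SIG6 had the closest neighbour, IMPL1 (0.13), followed by ATATH8 (0.16). SIG2 was closest to PnsB1 (0.25), a subunit of the chloroplast NDH complex, and ZKT (0.25). SIG5 was closest to GBSS1 (0.39), the starch synthase that makes amylose, and SPS2 (0.41), and had the most distant nearest neighbour of the 9. The nearest genes were AT5G63020 and ITN1 for SIG1, AT5G19500 and AT1G56500 for SIG3, and CDC27a and AT3G63450 for SIG4. They were AT5G08430 and ATSUV3 for RPOTm, ATHB-15 and AT1G65950 for RPOTp, and LHW and RBL for RPOTmp. Among the members themselves RPOTm and RPOTp were closest (0.30), then SIG2 and SIG6 (0.35) and SIG3 and SIG6 (0.37). The 16 libraries share their genotypes and label sets, so these distances describe the libraries only.

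Genes that work with the members moved in part with them. All 4 PEP core subunits fell in Atepl1-2 of the second label set, between -1.98 for rpoA and -1.49 for rpoB, but only rpoC1 fell in Ateaf1-1 (-1.07). Of all genes, which are mostly nuclear, 13.5% and 12.5% fell there. On the log2(TPM + 1) scale the median of the 4 was -1.10 in Atepl1-2 of the second label set, 0.18 in Ateaf1-1 (1 of 4 below 0) and -0.13 in Atepl1-2 within the first label set, against -1.89, -0.74 and -0.75 on counts. None was called in Atepl1-2 within the first label set by edgeR (-0.78 to -0.44; 3 had an unadjusted p under 0.05, limma-voom called 0 and DESeq2 3) or in glk (0.04 to 0.24; 0 under 0.05 and none called by either other tool). Of the 12 PEP-associated proteins 9 fell in Atepl1-2 of the second label set, 4 in Ateaf1-1 and all 12 in Atepl1-2 within the first label set, beside 13.5%, 12.5% and 21.8% of all genes. Their medians were -1.40, -0.80 and -1.13. PAP7 (-2.45, -1.25 and -2.44) and PAP12 (-2.17, -2.65 and -2.67) fell in each of these comparisons. In glk none of the 12 was called by edgeR or limma-voom (5 had an unadjusted p under 0.05, and DESeq2 called 2), and the median was 0.48. On the log2(TPM + 1) scale the median of the 12 was -0.22 in Atepl1-2 of the second label set, 0.15 in Ateaf1-1 and -0.30 in Atepl1-2 within the first label set, with 7, 4 and 12 of the 12 below 0 in these comparisons. PAP4 and PAP9, both called lower on counts in Atepl1-2 of the second label set, stood at 0.17 each there on that scale.

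**Figure D5:**
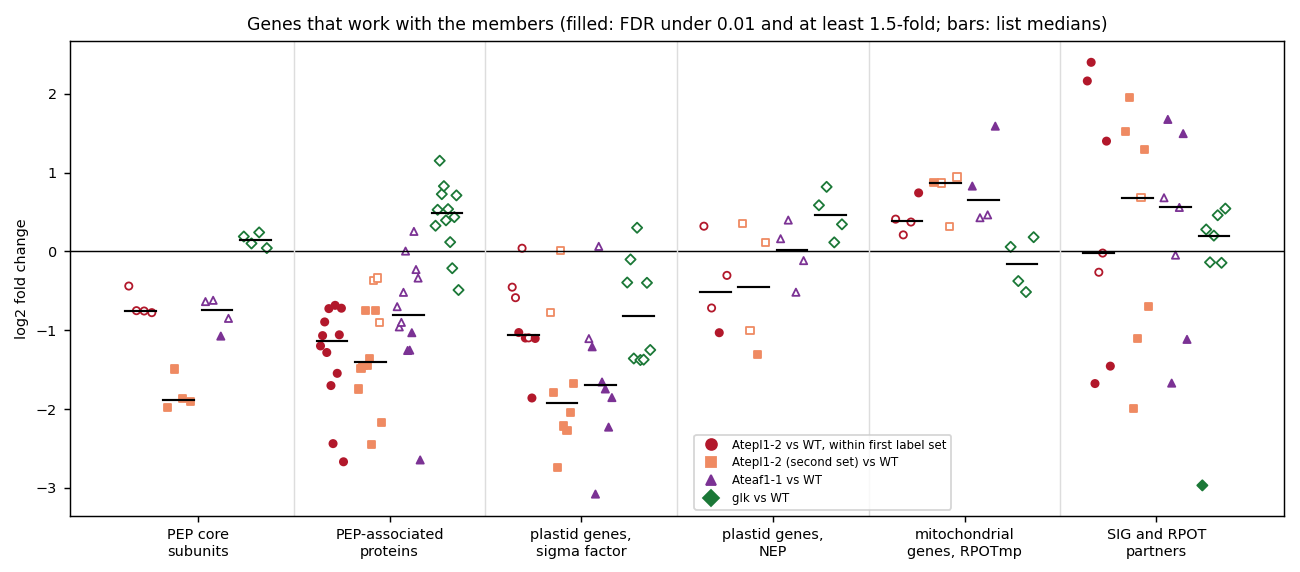
Log2 fold change against WT of the genes in 6 lists that work with the members, for the same 4 comparisons, with filled points for called genes and black bars for list medians. The PEP-associated proteins lie below 0 in Atepl1-2 (medians -1.13 within the first label set and -1.40 for the second), and their median in glk is 0.48.

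Most of the 8 plastid genes with a known sigma factor preference were called lower in the NuA4 mutants of the second label set. In Atepl1-2 of the second label set 6 of 8 fell (psbD, psbN, psaA, psaB, psaJ and rbcL), and the same 6 fell in Ateaf1-1. Within the first label set 4 fell in Atepl1-2 (psbN, psaA, psaJ and rbcL). These counts stand beside 13.5%, 12.5% and 21.8% of all genes. Most of those genes are nuclear: 20733 were tested with the second label set, and 20355 with organelle genes left out. Chloroplast genes as a whole took a smaller share of the counts in most NuA4 mutant libraries, and the part of this in the 8 genes was not tested. psbA was called in none of the 3 comparisons (-0.78, -1.11 and -0.45). On the log2(TPM + 1) scale the medians of the 8 were -1.04, -0.62 and -0.33 in these comparisons, with 6, 7 and 5 below 0, against -1.92, -1.70 and -1.06 on counts. psbN, read with SIG3, was at -2.74 in Atepl1-2 of the second label set, -3.08 in Ateaf1-1 and -1.03 in Atepl1-2 within the first label set. psaJ, read with SIG2, was at -2.04, -2.23 and -1.86 in these comparisons. psbD, whose light-responsive promoter needs SIG5, was at -1.79, -1.21 and -0.59, and was not called in the last. ndhF, read with SIG4, did not change detectably (0.02, 0.06 and 0.04, SE 0.22 to 0.29). In glk none of the 8 was called by edgeR or limma-voom, 4 had an unadjusted p under 0.05 (psbN, psaA, psaB and rbcL, at -1.38 to -1.25), and DESeq2 called 4.

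Of the 4 plastid genes with a known NEP promoter only ycf2.1 was called in the NuA4 mutants, lower in Atepl1-2 of the second label set (-1.31) and within the first (-1.03), where 13.5% and 21.8% of all genes were lower. On the log2(TPM + 1) scale the medians of the 4 were 0.23 and 0.04, against -0.45 and -0.51 on counts. accD and clpP1 stayed between -0.30 and 0.35 in the NuA4 mutants. In glk the 4 genes were at 0.11 to 0.82 and none was called by edgeR, limma-voom or DESeq2 (1 had an unadjusted p under 0.05, ycf1). Of the 5 mitochondrial genes that need RPOTmp, 4 passed the filter, and nad2a rose in Atepl1-2 of the second label set (0.88) and in Ateaf1-1 (0.83). rps4 rose in Ateaf1-1 (1.59) and in Atepl1-2 within the first label set (0.74), while cox1 was not called in any of them (0.32 to 0.46). Of all 20733 genes, 3477 were higher in Atepl1-2 of the second label set and 2818 in Ateaf1-1. Mitochondrial genes as a whole took 0.64% to 0.76% of the counts in WT. They took 1.58% to 1.83% in Atepl1-2 of the second label set, 1.64% to 1.84% in Ateaf1-1 and 1.06% to 1.21% in Atepl1-2 of the first. The part of this general rise in the list was not tested.

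Partners of the members moved in both directions: of 7, 3 were higher and 3 lower in Atepl1-2 of the second label set, 2 and 2 in Ateaf1-1, 3 and 2 in Atepl1-2 within the first label set, and 0 and 1 in glk, beside 30.3%, 26.1%, 45.1% and 11.6% of all genes called in either direction. SIB2, a protein that binds SIG1 and is linked to defence, rose in Atepl1-2 of the second label set (1.95), in Ateaf1-1 (1.67) and in Atepl1-2 within the first label set (2.40). Its relative SIB1 rose in Atepl1-2 of both label sets (1.52 in the second, 2.16 within the first), and fell by 2.97 in glk. CSK, the chloroplast sensor kinase that acts on SIG1, fell by 1.99, 1.67 and 1.68 in Atepl1-2 of the second label set, Ateaf1-1 and Atepl1-2 within the first, and was at -0.14 in glk. NIP2, which anchors RPOTmp to thylakoids, rose in the same NuA4 comparisons (1.30, 1.49 and 1.40), and its relative NIP1 was called in none. DG1, which binds SIG6, fell in Atepl1-2 of the second label set (-1.10) and was not called in the others. PRIN2, a small protein needed for PEP activity, fell by 0.69, 1.12 and 1.46 in these comparisons and was at 0.54 in glk (FDR 0.047). On the log2(TPM + 1) scale PRIN2 stood at 0.12 in Atepl1-2 of the second label set.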

How the data were processed

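Per the labels, the RNA-seq libraries were made from leaf RNA of several pooled plants, with a stranded kit that removes plant ribosomal RNA. The authors trimmed reads with BBDuk2, removed ribosomal reads and quantified Araport11 genes with Salmon, using sequence and GC bias correction (Salmon 0.13.1 in the submitters' processing notes). The deposited estimated counts are whole numbers for each gene and library and were used as they stand. The deposited TPM values, which the authors also took from Salmon, were used for levels between genes and as an alternative scale. TPM and CPM are relative measures: a transcript's value falls when others take more of the total. The ChIP-seq read totals, which give no value per gene, were not used here.

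Estimated counts were filtered with filterByExpr, scaled by TMM and tested with edgeR 4.0.16 (quasi-likelihood) in R 4.3.3, over the 13 libraries of WT and the second label set, with all 4 WT libraries, or over the 6 libraries of the first label set. The comparison between label sets used 16 libraries. P-values were adjusted over all genes tested (Benjamini-Hochberg). Alternatives were DESeq2 1.42.0 (tests and size factors), limma 3.58.1 (voom, and log2(TPM + 1) and log2(TPM + 0.1)), no filter on low counts, organelle genes left out, an FDR threshold of 0.05, only the groups compared, a replicate block, a label set term, the second label set alone, and each library left out. Every member is named, as are the genes of the lists and the 2 nearest genes of each member by profile. The members and the lists were chosen with earlier results of these data known. The fits were tested on simulated counts. Depth was 22330141 to 39666320 counts per library, and the number of libraries and the counts behind low genes such as RPOTmp limit precision.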

Additional observations from a re-analysis of the deposited data

Results flagged for a closer look

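Among the 4 WT libraries, replicate 4 lay apart from the others for 2 of the 9 genes. SIG6 had 30.1 CPM in WT replicate 4, against 43.6 to 45.4 CPM in replicates 5, 7 and 8, and the gap took 0.886 of the group's range, above the 95% limit for 4 samples. RPOTmp had 4.52 CPM in WT replicate 4, against 1.61 to 2.02 CPM in the others (0.859 of the range). Chance flags about 1 in 20 groups, and 9 genes were examined. WT replicate 4 is also the WT library of the second label set. Without it SIG6 kept its calls in both NuA4 mutants, and RPOTmp was called in all 3 mutants of the second label set. Against it, in the fit of 16 libraries, RPOTmp in Atepl1-2 was at 0.25.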

How the results depend on the processing

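Of 1143 alternative values of the members' log2 fold changes, 1030 kept their side of the threshold (68 of them, called in neither, changed sign), 73 lost a call, 38 gained one and 2 turned round. Those 2 were SIG5 in Atepl1-2 (1.28) and in Ateaf1-1 (2.02), both with a label set term, which for Atepl1-2 gives 1 effect over both label sets. With the second label set alone, which has a single WT library, the members called numbered 2 in Atepl1-2, 1 in Ateaf1-1 and 1 in glk, against 4, 4 and 2 with all WT libraries. In glk 1 member was called with DESeq2 size factors, 1 with limma-voom, 1 on the log2(TPM + 0.1) scale and 1 with a label set term. In Ateaf1-1 0 were called on the log2(TPM + 1) scale and 2 on the log2(TPM + 0.1) scale. Between glk and Atepl1-2 3 were called on either TPM scale, against 5, and between glk and Ateaf1-1 1 was, against 4. With single libraries left out, the counts ranged from 4 to 5 in Atepl1-2 of the second label set, 3 to 5 in Ateaf1-1 and 0 to 4 in glk, were 6 in Atepl1-2 within the first label set each time (4 on the log2(TPM + 1) scale, where SIG3, SIG4 and RPOTmp lost their call and SIG1 gained one at 0.65, and 5 on the log2(TPM + 0.1) scale), and ranged from 3 to 4 in glk over Atepl1-2 and 3 to 4 in glk over Ateaf1-1.

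All 54 mean TPM values of the members moved when TPM was rescaled over nuclear genes. Over all genes the log2(TPM + 1) scale called 7726 higher and 458 lower in Atepl1-2 of the second set, where counts called 3477 and 2795, and 8510 and 466 in Ateaf1-1, where counts called 2818 and 2593. The same scale gave 1289 and 515 in glk (867 and 1544 on counts), 6664 and 1054 in Atepl1-2 within the first label set (4392 and 4111), 692 and 4328 for glk over Atepl1-2 (2353 and 3240) and 601 and 3472 for glk over Ateaf1-1 (1986 and 2511). On the log2(TPM + 0.1) scale 9671 genes were called in Atepl1-2 and 10602 in Ateaf1-1. With the second label set alone the genes called numbered 2686 in Atepl1-2, 2252 in Ateaf1-1 and 574 in glk, where the main counts were 6272, 5411 and 2411. Fitting only the groups compared gave 3469 in Ateaf1-1. In glk DESeq2 called 3707 and a label set term 1424, and single libraries left out gave 1093 (without glk replicate 3) to 4174 (without WT replicate 4). Between Atepl1-2 and Ateaf1-1, where 27 were called, limma-voom called 80, DESeq2 907, no filter 47, the TPM scales 222 and 50, and the groups compared alone 0. The cause of these differences was not tested.

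No paired analysis was possible for the comparisons with WT because the replicate numbers of WT and the mutants overlap in at most 1 library. Among the mutants of the second label set the deviations of same-numbered libraries correlated at -0.100 to 0.179, so the numbers were not taken as pairs. With a replicate block glk over Ateaf1-1 had 7 members called, against 4, and over all genes 5714, against 4497, while Atepl1-2 against Ateaf1-1 had 0 genes, against 27. Not every library correlated best with its own number. Depth limited RPOTmp most, with 27 to 38 counts in WT of the first label set. The direct comparison of Atepl1-2 libraries between label sets was chosen after seeing the data.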
